A study of Homo sapiens with 2 samples.

Results

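The interferon regulatory factors (IRFs) and the signal transducers and activators of transcription (STATs) are the transcription factors that carry antiviral and cytokine signals to the genome. A set of 9 of their genes was taken by name: IRF1, IRF2, IRF3, IRF5, IRF7, IRF9, STAT2, STAT3 and STAT6. A gene was used where a probe set of the array carried its symbol and no other in the platform annotation. This found 7 of the 9, each read by 1 probe set, among 14884 named genes on the array. STAT2 and STAT6 have no named probe set and are not analysed here, so the STAT side of the set is STAT3 alone.

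The cells were HT1080, an established human fibrosarcoma line. One sample came from cells infected with a virus for a short hairpin RNA (shRNA) against cMyc and the other from cells infected with a non-targeting control shRNA virus, and both were harvested after 48 hours. Both groups thus received a hairpin virus and differ in its hairpin, and no array of uninfected cells was used here. Each group is 1 sample on 1 Affymetrix Human Gene 2.0 ST array, and the labels do not say how many hairpins against cMyc were used.

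In the textbook scheme, sensors of viral RNA or DNA lead to phosphorylation of IRF3 and IRF7, which switch on interferon genes. Secreted interferon binds its receptor, JAK kinases phosphorylate STAT proteins, and STAT2 joins IRF9 in the complex ISGF3. IRF9 gives ISGF3 its contact with the interferon-stimulated response element (ISRE) of target genes. IRF1 acts mainly downstream of interferon-gamma, IRF2 competes with it for the same DNA element, and IRF5 acts downstream of Toll-like receptors. STAT3 serves interleukin-6 type cytokines and growth factors. IRF3, IRF7 and the STAT proteins are switched on largely by phosphorylation, which an RNA array does not measure.

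The values are log2 expression levels, and each difference is the value with the cMyc shRNA minus that with the control shRNA. With 1 array per group there was no replicate check, no test was run, and every value describes these arrays. A technical SD of 0.34 for the log2 difference of 1 probe set was estimated from 416 genes with several probe sets. It leaves out the variation between cultures and infections. Some genes, such as TAPBP, have probe sets with identical or nearly identical readings on both arrays, which can make this SD too low. MYC, the target of the hairpin, read 7.09 and 6.16, a log2 difference of -0.93. A gene counted as measured when its mean level reached 3.70, the median of all probe sets on the arrays. Of 10258 measured genes, 206 (2.01%) were at least 2-fold higher with the cMyc shRNA and 410 (4.0%) at least 2-fold lower.

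All 7 named IRF and STAT genes counted as measured. One of them, IRF9, was at least 2-fold higher with the cMyc shRNA, none (0) passed 2-fold in the other direction, and 6 differed by less than 2-fold. The difference was above 0 for 6 genes and below 0 for 1. The median difference of the set was 0.19, beside -0.01 over all measured genes, whose 10th and 90th percentiles were -0.65 and 0.55. IRF9 and IRF1 lay above that 90th percentile, and the other 5 lay inside the range. The set's median was the same 0.19 without IRF9.

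**Figure D1:**
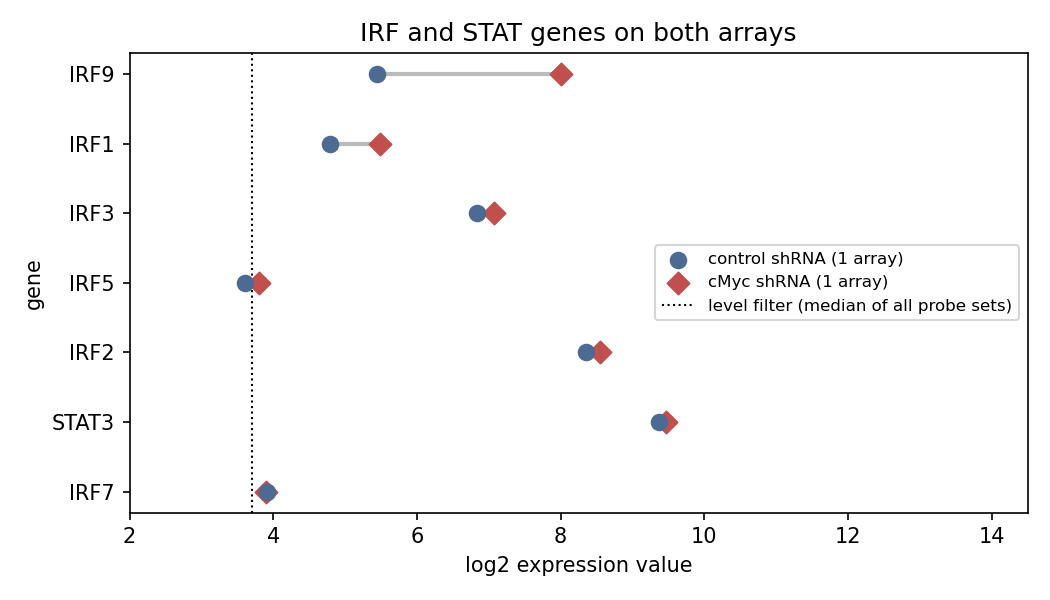
Log2 expression value of each named IRF and STAT gene (horizontal axis) with the control shRNA (circles) and the cMyc shRNA (diamonds), 1 array each; the dotted line is the level filter of 3.70. The line between the points is long for IRF9 (5.44 to 8.01), shorter for IRF1 (4.79 to 5.49), and the 5 other pairs nearly coincide.

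IRF9, the DNA-binding subunit of ISGF3, read 5.44 with the control shRNA and 8.01 with the cMyc shRNA (probe set 16782687). It was thus well above the level filter on both arrays and higher on the cMyc shRNA array. The log2 difference was 2.57, a 5.94-fold higher level, and 29 of the 10258 measured genes had a higher difference. That difference was 7.65 times the technical SD of 1 probe set.

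IRF1, the founding member of the family and a factor of the interferon-gamma response, read 4.79 with the control shRNA and 5.49 with the cMyc shRNA (probe set 16999776). Its level was higher with the cMyc shRNA by 0.70 on the log2 scale, or 1.62-fold, which did not reach 2-fold. A higher difference was seen in 584 measured genes, and past 1.5-fold lay 8.77% of measured genes on the higher side and 11.9% on the lower. By that wider rule 2 members, IRF9 and IRF1, were higher and 0 lower. The gap in difference between IRF9 and IRF1 was 1.87, beside a technical SD of 0.48 for the gap between a pair of probe sets. The gap from IRF1 to IRF3, the next in order, was 0.47 and did not exceed that SD.

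The DNA just upstream of these genes is shown because IRF9 and IRF1 were the members with the highest differences, and because IRF and STAT factors read short motifs that can be looked for there. RefSeq's promoter table on GRCh38.p14 held 6 of the 9 genes; IRF2, IRF3 and IRF7 have no entry. Windows of 250 bases ending at the base before the annotated start were searched on both strands for 3 motifs. They were the ISRE core GAAANNGAAA, the STAT element TTCNNNGAA known as GAS, and the E-box CACGTG, the sequence preferred by MYC with MAX and by other factors of their class. Capitals mark the matches, and N stands for any base.
IRF9 (chr14:24161015-24161264, plus strand): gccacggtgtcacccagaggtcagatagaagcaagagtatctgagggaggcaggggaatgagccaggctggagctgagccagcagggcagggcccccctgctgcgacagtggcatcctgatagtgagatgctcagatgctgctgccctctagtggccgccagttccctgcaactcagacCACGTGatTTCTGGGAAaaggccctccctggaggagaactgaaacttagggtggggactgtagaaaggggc
IRF1 (chr5:132490774-132491023, minus strand): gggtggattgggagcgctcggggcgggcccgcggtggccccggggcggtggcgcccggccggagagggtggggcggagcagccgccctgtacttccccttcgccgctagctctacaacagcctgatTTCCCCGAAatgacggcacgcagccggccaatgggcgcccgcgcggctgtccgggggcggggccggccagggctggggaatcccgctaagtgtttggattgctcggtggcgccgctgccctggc

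The IRF9 window held an E-box from -71 to -66 and a GAS match from -63 to -55, counted from the start site, with 2 bases between them. The IRF1 window held a GAS match from -124 to -116. Of all 35116 promoter windows in the table, 6.57% held a GAS match, 6.34% an E-box and 0.265% both. The windows of STAT2, STAT3 and STAT6 and the 4 windows of IRF5 held none of the 3 motifs. A match is a run of letters and not evidence of binding, and the array does not measure binding. The motif search was not among the planned comparisons. Whether GAS or E-box matches go with the differences was not tested.

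IRF3, a constitutively made factor that phosphorylation switches on, read 6.84 with the control shRNA and 7.07 with the cMyc shRNA. The difference was 0.23, closer to 0 than the technical SD. IRF7, which in many cell types is itself an interferon-stimulated gene, read 3.91 and 3.89 in the same order, a difference of -0.02. It was thus nearly level between the arrays and close to the filter of 3.70, where the table has no detection calls to tell signal from background. IRF5, best known from myeloid and B cells, read 3.61 and 3.81. Its control value was below the filter, so its difference of 0.19 rests on values near the median of all probe sets.

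IRF2, an antagonist of IRF1 on shared DNA elements, read 8.35 with the control shRNA and 8.55 with the cMyc shRNA, a difference of 0.19. STAT3 read 9.37 and 9.46, a difference of 0.09. Both genes were well above the level filter and differed between the arrays by less than the technical SD. Ordered by difference, IRF3, IRF5, IRF2, STAT3 and IRF7 spanned 0.25 in all, and no neighbours among them were farther apart than 0.48. Levels are not ranked between genes, since probe sets differ in brightness.

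**Figure D2:**
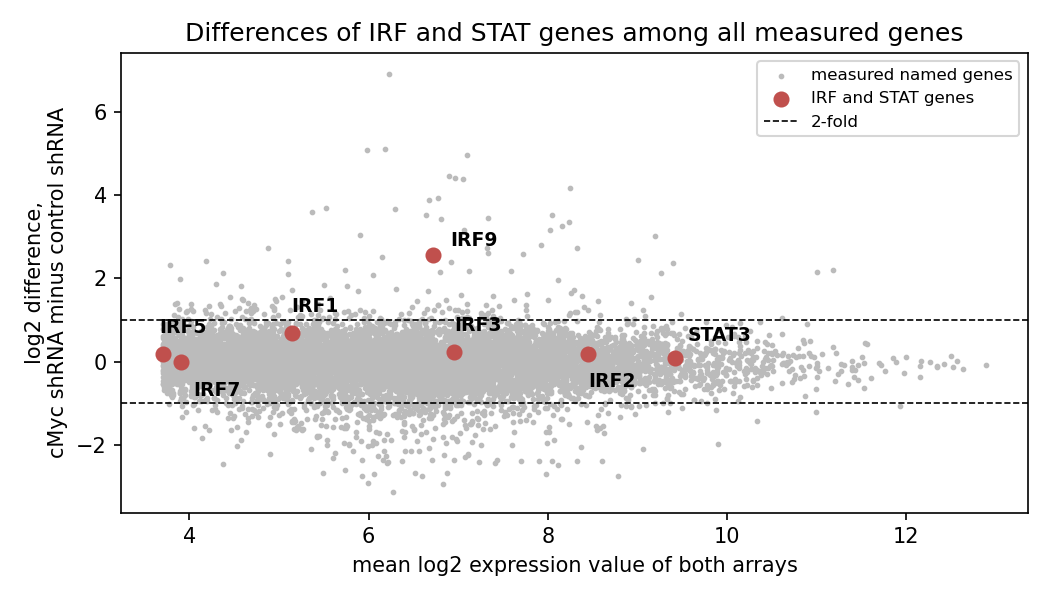
Log2 difference of cMyc shRNA minus control shRNA (vertical axis) against the mean log2 value of both arrays (horizontal axis) for 10258 measured genes (grey) and the 7 IRF and STAT genes (red); dashed lines mark 2-fold. IRF9, at 2.57, is the red point outside the dashed lines, and IRF1, at 0.70, is next.

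Of 5 other IRF and STAT genes named on the array, 3 were measured, and none of these reached 2-fold. IRF8, a factor of myeloid and B cells, had the highest difference at 0.36, and STAT5B, a mediator of growth hormone signals, the lowest at -0.16. STAT5A differed by 0.13. IRF4 (2.87 and 3.27) and STAT4 (2.58 on both arrays) lay below the level filter. Of ISGF3, the value given here is that of IRF9.

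Genes that act upstream of these factors were followed by role. Of 15 measured sensors, adaptors and kinases upstream of IRFs, 5 were at least 2-fold higher and 0 lower. Their median was -0.01, and 0.04 after quantile normalization. IFIH1 and RIGI, cytosolic sensors of viral RNA that are also listed below as ISGF3 targets, differed by 5.07 and 3.01. TLR3, the endosomal sensor of double-stranded RNA, differed by 3.51. The control value of IFIH1 (3.45) was below the level filter, so the size of its difference is uncertain. The other two, named after their values were seen, were TANK (1.04) and AZI2 (1.02), adaptors of the kinase TBK1. TBK1, which phosphorylates IRF3, read 7.12 with the control shRNA and 7.85 with the cMyc shRNA, a difference of 0.73. In the other direction the adaptor TICAM1 differed by -0.78, TLR4, the endotoxin receptor, by -0.78 and the kinase IRAK1 by -0.60. These 4 genes were named after their values were seen.

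No interferon gene could be followed, since 0 of the 21 listed ligands had a probe set that carried its symbol and no other. Of 6 interferon receptor genes 2 were measured, and both interferon-gamma receptor chains lay within 2-fold, IFNGR1 at 0.72 and IFNGR2 at 0.30. IFNAR1 and IFNAR2, the chains for type I interferon, are not analysed here. Of 4 JAK kinases 3 were measured and none reached 2-fold. JAK2 had the highest difference at 0.82 and TYK2, a kinase of the type I receptor, the lowest at -0.09.

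Cytokines and receptors that act through STAT3 and STAT6 had 9 measured members of 20, with a median of -0.08. LIFR, the receptor chain for leukaemia inhibitory factor, was the one past 2-fold, reading 5.07 and 6.21, a difference of 1.14. Of 13 measured negative regulators 2 were at least 2-fold higher and 0 lower, with a median of 0.09. USP18, which removes ISG15, blocks the type I receptor and is also listed below as an ISGF3 target, differed by 4.39. TRIM21, an antibody receptor and ubiquitin ligase, differed by 1.64. Of the classical feedback inhibitors of STATs, named after their values were seen, SOCS1 differed by 0.09. SOCS3 differed by -0.42 on the brighter of its probe sets, and the dimmer one gave 0.15.

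Partners and coactivators had 9 measured members of 14, of which 3 were at least 2-fold higher and 0 lower, with a median of 0.21. IFI35 differed by 2.80 and NMI, which forms a complex with it, by 2.15. DTX3L, a ubiquitin ligase that pairs with PARP9, differed by 2.37. The general coactivators CREBBP (-0.21) and EP300 (-0.41), named after their values were seen, lay within 2-fold.

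Target genes were compared in lists, each named after a factor its genes are known for. A gene can answer to more than the factor its list is named after. Which factor acted on these genes here was not tested. ISGF3 targets had 34 measured members of 48, and 31 were at least 2-fold higher and 0 lower, with a median of 3.16. IFIT1 (6.90), IFIT2 (5.09) and IFIH1 (5.07) had the highest differences. Control values were below the level filter for 7 of the 31, including these (2.78, 3.63 and 3.45), so those 7 counted as measured through the cMyc shRNA array and the sizes of their differences are uncertain. With control values below the filter raised to it, an alternative chosen after seeing the data, the median was again 3.16, 31 members passed 2-fold, and IFIT1, IFIT2 and IFIH1 had 5.98, 5.02 and 4.81. The 3 members within 2-fold, named after their values were seen, were IFITM3 (0.67), ISG20 (0.23) and IFITM2 (-0.08). Targets of IRF1 and interferon-gamma had 8 measured members of 31, with 2 at least 2-fold higher, 0 lower and a median of 0.35. They were GBP3, a guanylate-binding protein, at 1.95, and B2M, beta-2-microglobulin. B2M differed by 1.01 on the brighter of its probe sets, and the dimmer one gave 0.53. TAP1, PSMB9, GBP1 and CIITA have no named probe set, so the list's median does not cover them. A further 7 genes of the list were named but lay below the level filter and are not counted either. Among them GBP4 (1.64) and CXCL10 (1.18) were past 2-fold higher, while CXCL9 (-0.49) and VCAM1 (-0.01) went the other way. Without the level filter the list's median was 0.42.

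For STAT3 targets, 18 of 26 were measured and their median was 0.02. One was at least 2-fold lower and 0 were higher. This was BIRC5 (-2.40), the survival factor survivin, which is also a gene of the mitotic programme. For STAT6 targets, 6 of 18 were measured, none passed 2-fold, and their median was -0.12. CISH, a feedback inhibitor, was the highest at 0.69, with a control value (3.47) below the level filter, and HOMER2, a scaffold protein, the lowest at -0.32. The lists were drawn up with earlier results of these data known, so their counts are not independent evidence.

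**Figure D3:**
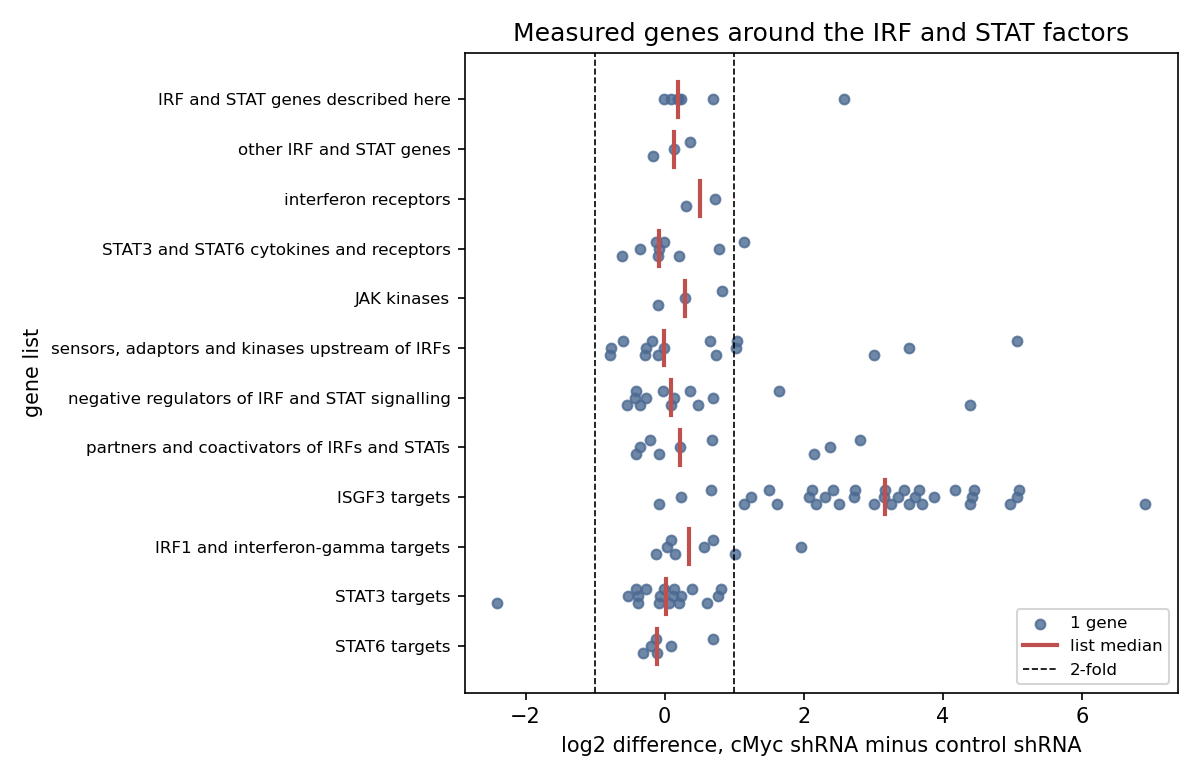
Log2 difference of cMyc shRNA minus control shRNA for each measured gene (points) of the set described here and of 11 lists around it, with list medians (red bars) and 2-fold (dashed lines). The ISGF3 targets have a median of 3.16, while the STAT3 and STAT6 targets have medians of 0.02 and -0.12.

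The ISRE was set beside these differences because IRF9 is the part of ISGF3 that reads it. IFIT1, the ISGF3 target with the highest difference, held 2 ISRE cores, starting at -116 and -103; capitals mark them on the reverse strand reading TTTCNNTTTC.
IFIT1 (chr10:89392504-89392532, plus strand): tagTTTCACTTTCcccTTTCGGTTTCcct
Of 7900 measured genes with a RefSeq promoter window, 240 (3.04%) held an ISRE core. Among genes at least 2-fold higher with the cMyc shRNA the count was 28 of 150 (18.7%), and among genes at least 2-fold lower it was 7 of 329 (2.13%). Of the ISGF3 targets at least 2-fold higher, 17 of 25 with a window held a core, and these 17 are among the 28. The list of targets is made up of genes known for this element. A core does not show which factor binds there, and whether IRF9 acts on these genes was not tested. Of the named IRF and STAT genes, 0 of 4 with a window held one, the IRF9 window included.

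By a fixed rule, the measured genes closest to IRF9 in both log2 readings were KBTBD8, an adaptor of a ubiquitin ligase (5.72 and 8.12, distance 0.31), NMI (5.73 and 7.87, distance 0.32) and MIR4500 (5.81 and 7.51, distance 0.62). The likeness rests on 2 arrays and on probe set brightness.

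The labelled cell type was checked on marker lists. Of 18 mesenchymal and fibroblast markers 8 were named and 5 measured, with FN1, a matrix protein, highest at 12.4 and 12.6 and TAGLN, an actin-binding protein, farthest in difference at -0.72 on the probe sets that stood for their genes, on which none of the 5 passed 2-fold. VIM, the intermediate filament vimentin, differed by -0.59 on that probe set and by -0.95 and -1.02 on its others, the last past 2-fold. S100A4, LUM and DCN of this list lay below the level filter, and its collagens are not analysed here. Of 18 immune cell markers, relevant because IRF5, IRF7 and IRF8 are best known from immune cells, 10 were named and 6 measured. None of the 6 passed 2-fold. The summed log2 level of all 10 named markers was 47.8 with the control shRNA and 48.7 with the cMyc shRNA. That sum mixes probe sets of unlike brightness and is not a measure of immune cell content. CD14, CD2, CD163 and LYZ lay below the level filter, and PTPRC has no named probe set. CD68, a lysosomal protein, was the brightest and had the largest difference, at 0.91. CSF1R, a macrophage growth factor receptor, differed by -0.81. The other measured markers, NCAM1, NKG7, TYROBP and CD247, read 6.21, 4.90, 4.16 and 3.83 with the control shRNA. Of 7 epithelial markers 6 were named, with KRT18 highest in level at 9.09 and 8.41 and also farthest in difference at -0.69 (0.12 on its other probe set). The 3 named endothelial markers lay below the filter, with KDR, a receptor for vascular endothelial growth factor, highest at 3.12 and 3.70.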

How the data were processed

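RNA of 2 HT1080 samples was measured on 1 array each. The deposited table holds log2 expression values for 53617 probe sets, made by the authors with Affymetrix Expression Console per the submitters' processing notes; for its version, normalization and summarization, the labels and notes used here give no detail. The log base was inferred from the range of 1.41 to 13.9. The column medians were 3.68 and 3.73. Depth does not apply to arrays, and their number limits the precision.

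Symbols came from GEO's platform annotation, in which 16098 probe sets carried 1 gene each. The other 37519, with no symbol or with several, were left unnamed here. The probe set with the highest mean stood for a gene. Differences, medians and counts past 2-fold were computed with Python 3.11.15, numpy 2.4.6 and pandas 2.3.3, and tested on simulated data. No p-value was computed. The members, the 12 gene lists and the 4 marker lists were chosen with earlier results of these data known. Genes named were the members, MYC, those past 2-fold in each list (the 3 farthest where over 4 were on a side, or the highest and lowest where none was), the highest level and largest difference of each marker list, and the 3 genes nearest to a member past 2-fold. Promoter sequences are RefSeq's, on GRCh38.p14. The alternatives were 3 scalings, the mean over probe sets, 2 level filters and a 1.5-fold rule, with 1 for low control values added after seeing the data.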

Additional observations from a re-analysis of the deposited data

How the results depend on the processing

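Under the 3 scalings IRF9 had a difference between 2.52 and 2.59, IRF1 between 0.65 and 0.71 and MYC between -0.98 and -0.87. The other members kept their direction under the scalings, with IRF7 between -0.07 and -0.06. Each of these genes has 1 probe set, so the level filters and the probe set rule could not change its difference. The 1.5-fold rule moved counts by construction: 2 members (IRF9 and IRF1) were then higher, beside 900 genes higher and 1224 lower, 2124 in all in place of 616. The filter at the 75th percentile tests fewer genes and left 4 of the 7 members measured and 126 genes at least 2-fold higher. Of 113 values under alternatives, 107 stayed within the technical SD, or for counts within 1.5 times. Many of these could not move, because filters and the probe set rule leave a gene with 1 probe set unchanged. Centring on the median shifts all genes by the same small amount. The count is therefore not a measure of robustness. No paired analysis was possible because each group holds 1 sample. Without detection calls, the values of IRF5 and IRF7, which lie near the median of all probe sets, cannot be told from background.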

Other observations

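The protein-coding genes next to the members, a set chosen after the data were seen, were read from the order of RefSeq's gene table (GRCh38.p14). Taking 3 genes on each side of the 7 named members gave 42 neighbours, of which 23 were measured. Of these 0 were at least 2-fold higher with the cMyc shRNA and 2 at least 2-fold lower, beside 2.01% and 4.0% of all measured genes. Next to IRF9, whose difference was 2.57, RNF31, a subunit of the linear ubiquitin ligase, differed by 0.24 and REC8, a meiotic cohesin subunit, by 0.58, while IPO4, an importin, differed by -0.62. The 2 lower neighbours were CENPU, a centromere gene near IRF2, at -1.78 and DRD4, a dopamine receptor gene near IRF7, at -1.20. STAT3 lies beside STAT5A and STAT5B, and all 3 differed by less than the technical SD of 0.34.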
